A study of Mus musculus with 24 samples.

Results

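The genes described here are 10 subunits of the Mediator complex, Med1, Med14, Med15, Med16, Med23, Med24, Med25, Med26, Med27 and Med29, found in the count tables by their symbols. All 10 were present among the 22609 gene symbols counted, and all 10 passed the filter on low counts that left 16280 genes for testing. The data are poly-A RNA-seq of E14TG2a, a mouse embryonic stem cell line of the 129/Ola strain, in 24 libraries that form 8 groups of 3. RA shMed12, RA shCdk8 and RA shNMC cells had spent 24 h in 1e-06 M all-trans retinoic acid with LIF, the cytokine that maintains pluripotency, taken away. The mESC shMed12, mESC shCdk8, mESC shRing1b, mESC shNMC and mESC untransfected groups are pluripotent cells kept in serum with LIF and without feeders. All groups but the last carry a stably transfected short hairpin, against Med12, Cdk8 or Ring1b, or one without a mammalian target (shNMC). No group lost LIF without receiving retinoic acid, so both changes cannot be told apart in what follows. The labels do not say how many hairpin sequences or clones stand behind a target, nor whether replicates are separate cultures, so p-values reflect the spread among these libraries alone, which may be technical.

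Mediator carries signals from DNA-bound activators to RNA polymerase II. Its head and middle modules contact the polymerase, its tail contacts activators, and a kinase module made of Med12, Med13, cyclin C and Cdk8 (or their paralogues) joins and leaves the rest. Med14 is the long scaffold that holds head, middle and tail together. Med15, Med16, Med23, Med24, Med25, Med27 and Med29 belong to the tail or to its junction with the head, Med1 is the subunit that nuclear receptors bind, and Med26 recruits elongation factors to the core complex. Messenger RNA was measured here, not protein and not assembled complexes.

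Gene counts per library ran from 27.4 to 34.1 M in the 6 mESC shRing1b and mESC untransfected libraries and from 37.8 to 57.3 M in the other 18. Reads with several alignments made up 20.0% to 21.7% of entries in the 6 and 44.1% to 49.1% in the 18, so a comparison across these sets also compares library sets. The members were counted from 169 times (Med29) to 11090 times (Med1) in a library. All 10 embryonic stem cell markers reached 1 CPM (counts scaled to library size) in every group. Med12 had 38.8, 45.6 and 61.2 CPM in RA shMed12 cells, against 94.1, 120.4 and 143.9 CPM in RA shNMC cells. In mESC it had 35.2, 43.7 and 46.2 CPM with shMed12, against 131, 129 and 139.6 CPM with shNMC. Cdk8 lay between 8.21 and 12.4 CPM in RA shCdk8 cells and between 42.6 and 48.1 CPM in RA shNMC cells. In mESC it lay between 10.7 and 15.2 CPM with shCdk8 and between 50.1 and 56.1 CPM with shNMC. Rnf2, the gene for Ring1b, had 52.4, 64.2 and 207 CPM in mESC shRing1b cells, against 221, 302 and 262 CPM in untransfected cells, so replicate 3, by label a Ring1b knockdown, kept Rnf2 near the untransfected level and stands against its label.

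Per kilobase of annotated exon, merged over the transcripts of a gene, the members differed several-fold in level. Which transcripts were expressed was not measured, so this scaling allows only a rough comparison between genes. The median over 24 libraries was 30.9 CPM per kb for Med24 and 21.8 for Med1. Med15, Med25 and Med23 followed at 18.9, 18.1 and 18.0 CPM per kb, and their ranges over the libraries overlapped almost wholly (15.1 to 23.5, 14.1 to 22.6 and 15.1 to 21.5). Med27 stood at 13.4, Med14 at 11.5, Med26 at 8.71, Med16 at 7.38 and Med29 at 5.26 CPM per kb. The ranges of neighbours in this order overlapped throughout. The order is that of the medians over all 24 libraries, and places in it depended on the group. Med16 ranked 8th and Med26 9th in RA shNMC cells, and 9th and 8th in mESC shNMC cells. The place of Med14 is described next.

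Med14, the scaffold subunit, varied most among the members. The log2 range of its 8 group means was 1.0, against 0.69 for Med26, 0.59 for Med16 and 0.35 to 0.44 for the other 7. It had 151, 137 and 163 CPM in RA shMed12 cells, 124, 139.7 and 129 CPM in RA shCdk8 cells, and 97.9, 105 and 100.2 CPM in RA shNMC cells. In mESC it had 126, 139.9 and 128 CPM with shMed12, 76.1, 78.9 and 69.8 CPM with shCdk8, and 76.9, 80.5 and 70.5 CPM with shNMC. The mESC shRing1b libraries held 72.9, 94.8 and 69.0 CPM and the untransfected ones 66.5, 86.4 and 74.6 CPM. Every library with shMed12 or retinoic acid therefore lay above every library without either, and among those without either the mESC shCdk8, shRing1b, shNMC and untransfected values overlapped. By group, Med14 made up 11.8% ± 0.90 of the summed per-kilobase level of the 10 members in RA shMed12 cells, 10.4% ± 0.81 in RA shCdk8 cells and 8.07% ± 0.37 in RA shNMC cells (SD, n = 3 each). In mESC the share was 10.6% ± 0.81 with shMed12, 5.74% ± 0.43 with shCdk8 and 5.66% ± 0.40 with shNMC (SD, n = 3 each). It ranked 4th among the members per kilobase in RA shMed12 cells and 7th in mESC shNMC cells.

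The start regions of Med14 and of Med27, which moved opposite ways with the Med12 hairpin, are given as the RefSeq table has them (build GRCm38.p6; the counts are on mm9), from 250 bases before to 50 after the start. Capitals mark matches on either strand to the GC box GGGCGG, the ETS core CCGGAAG or the CCAAT box.
Med14, chrX:12761924-12762223, minus strand: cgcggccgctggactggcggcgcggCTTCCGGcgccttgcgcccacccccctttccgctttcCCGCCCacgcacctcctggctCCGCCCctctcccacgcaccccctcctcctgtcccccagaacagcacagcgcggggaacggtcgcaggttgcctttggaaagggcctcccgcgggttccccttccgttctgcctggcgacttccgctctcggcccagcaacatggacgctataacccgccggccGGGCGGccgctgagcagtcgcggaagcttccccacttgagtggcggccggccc
Med27, chr2:29346560-29346859, plus strand: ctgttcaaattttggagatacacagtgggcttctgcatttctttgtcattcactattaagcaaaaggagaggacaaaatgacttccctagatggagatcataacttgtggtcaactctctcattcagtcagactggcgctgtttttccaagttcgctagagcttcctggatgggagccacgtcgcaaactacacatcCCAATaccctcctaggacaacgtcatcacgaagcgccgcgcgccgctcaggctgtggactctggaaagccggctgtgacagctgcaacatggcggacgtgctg
The Med14 region held 34 CpG dinucleotides, 3 GC boxes and 1 ETS core, and the Med27 region held 14 CpG dinucleotides and 1 CCAAT box. Over all 32851 promoters of that length in the table, the median number of CpG dinucleotides was 7 (quartiles 3 and 20). A GC box was found in 35.7% of them, an ETS core in 8.86% and a CCAAT box in 37.4%. The nuclear receptor half-site AGGTCA, found in 16.3% of all, had no match in either printed window and had one in 2 of the 10 entries for the members, 1 of Med29 and 1 of a second Med27 start. The table held 8 of the 10 members, and Med23 and Med24 were not among them. These matches describe letters and do not show binding.

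**Figure D1:**
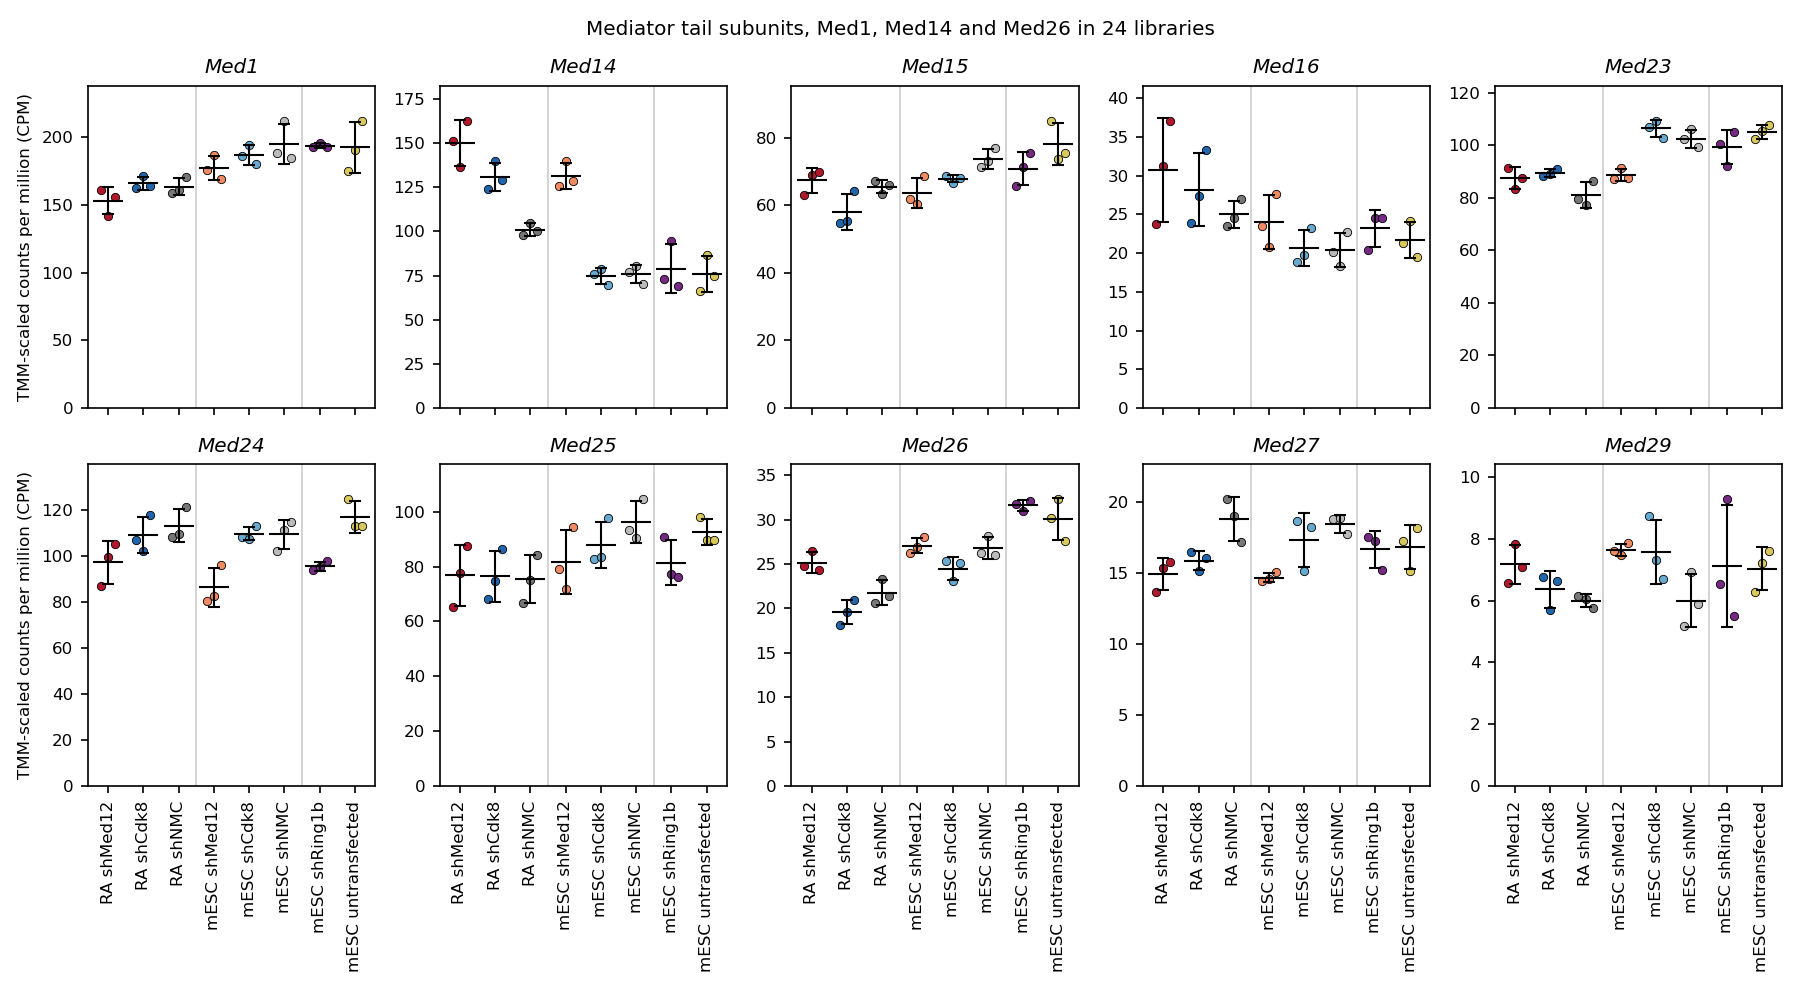
CPM (vertical axis) of each of the 10 members in every library, by group along the horizontal axis, with points for libraries and bars for group means. Med14 stands at 137 to 163 CPM in RA shMed12 cells and at 70.5 to 80.5 CPM in mESC shNMC cells, while the other members keep within narrower bands.

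With the hairpin against Med12 in mESC, Med14 rose and 4 tail genes fell, by smaller amounts. In all, 5 of 10 members passed an edgeR adjusted p under 0.05, the threshold called significant throughout, where 40.5% of all genes tested did. This share lies near that of all genes, so the count as such says nothing particular about the members. The median log2 change of the members was -0.18, against -0.01 over all genes. Med14 was 1.73-fold higher in mESC shMed12 than in mESC shNMC cells (log2 change 0.79, SE 0.11, n = 3 each, edgeR adjusted p = 4.6e-06), and this call held under every alternative tried.

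Med24, Med23 and Med16 form a submodule of the tail. Med24 had 80.3, 82.5 and 96.2 CPM in mESC shMed12 cells, against 102, 111 and 115 CPM in mESC shNMC cells, and the groups did not overlap. Its log2 change was -0.34 (SE 0.09, edgeR adjusted p = 0.0028). Med23, which the activator Elk1 binds, had 87.0, 91.4 and 87.4 CPM in mESC shMed12 cells and 102, 106 and 99.1 CPM in mESC shNMC cells. All 3 shMed12 libraries lay below all 3 shNMC libraries, with a log2 change of -0.21 (SE 0.07, edgeR adjusted p = 0.016). The Med23 call ended without shMed12 replicate 1 (edgeR adjusted p = 0.059) or without shNMC replicate 2 (edgeR adjusted p = 0.064). Med16 stood at 20.8 to 27.7 CPM with shMed12 and 18.3 to 22.7 CPM with shNMC, which overlapped, and its log2 change of 0.24 (SE 0.15) was not called.

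Med27, at the junction of tail and head, had 14.4, 14.6 and 15.1 CPM in mESC shMed12 cells, against 18.8, 18.9 and 17.8 CPM in mESC shNMC cells. The groups lay apart, with a log2 change of -0.33 (SE 0.11, edgeR adjusted p = 0.015). Without shMed12 replicate 1 or 2 the edgeR adjusted p was 0.052 or 0.056. Med15, a tail subunit bound by Smad2 and Smad3 and by SREBP proteins, had 61.9, 60.2 and 68.5 CPM with shMed12, against 71.2, 73.1 and 77.0 CPM with shNMC. It was lower in all shMed12 libraries by a log2 change of -0.21 (SE 0.08, edgeR adjusted p = 0.043), the weakest of the 5 calls. It ended without the filter on low counts (edgeR adjusted p = 0.085) and without shMed12 replicate 1 or 2 (0.13 or 0.21), or shNMC replicate 1, 2 or 3 (0.057, 0.075 or 0.14).

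The remaining members were not called. Med1 had 176, 187 and 169 CPM in mESC shMed12 cells, against 189, 212 and 185 CPM in mESC shNMC cells (log2 change -0.14, 95% interval -0.30 to 0.02). Med25, a tail subunit with an activator-binding domain, had a log2 change of -0.23 (95% interval -0.49 to 0.02). Med26 had 26.2, 27.0 and 28.0 CPM with shMed12 and 26.2, 28.2 and 26.0 CPM with shNMC, a log2 change of 0.01 (95% interval -0.16 to 0.19). Med29, the member with the fewest counts, had a log2 change of 0.35 (SE 0.17, edgeR adjusted p = 0.10) although its groups did not overlap, at 7.46 to 7.85 CPM with shMed12 and 5.19 to 6.92 CPM with shNMC.

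**Figure D2:**
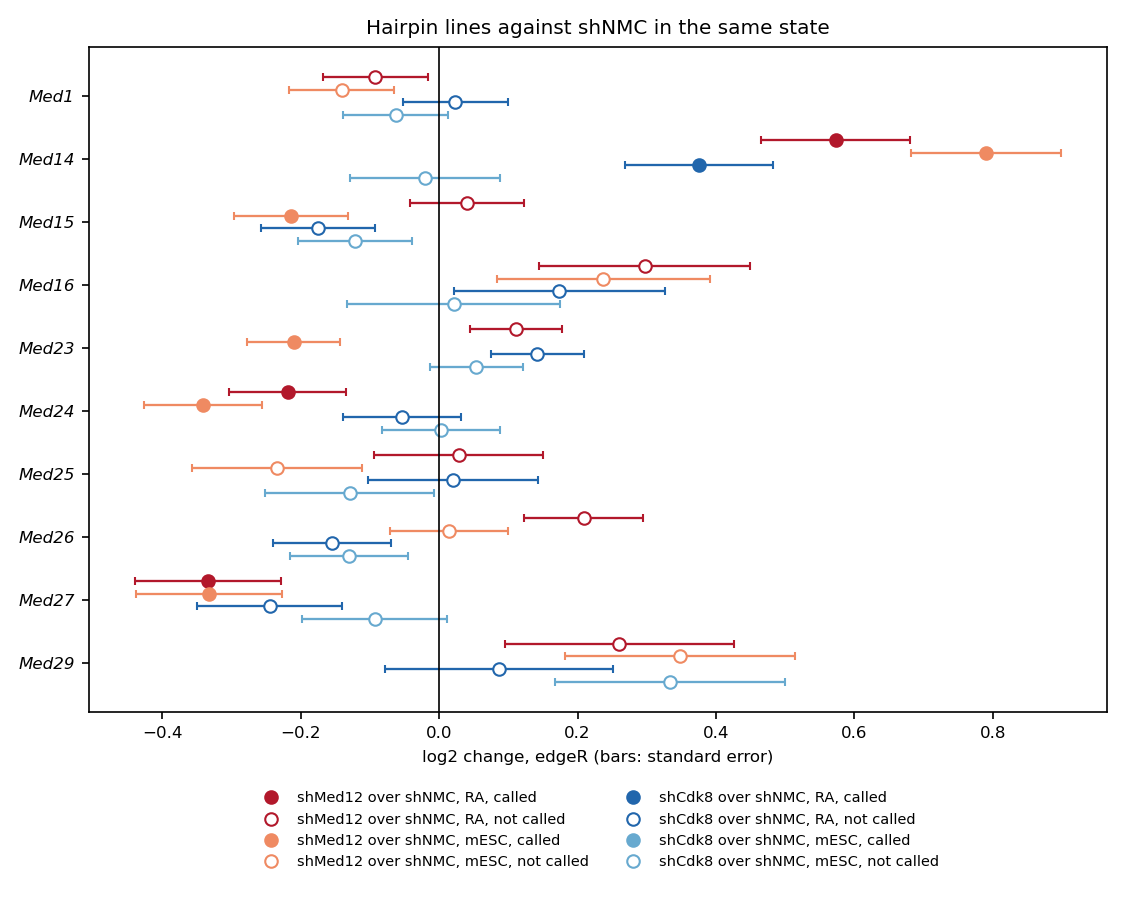
Log2 change of each member (horizontal axis, bars for standard error) for shMed12 and for shCdk8 over shNMC, in RA and in mESC cells, with filled points for calls. Med14 stands at 0.79 with shMed12 in mESC, at 0.57 with shMed12 in RA and at 0.38 with shCdk8 in RA; Med24 and Med27 lie below 0 with shMed12 in both states.

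After 24 h of retinoic acid, the Med12 hairpin went with higher Med14 and lower Med27 and Med24. Here 3 of 10 members were called, where 41.9% of all genes tested were. The members' median log2 change was 0.08, against -0.0038 over all genes. Med14 was 1.49-fold higher in RA shMed12 than in RA shNMC cells (log2 change 0.57, SE 0.11, n = 3 each, edgeR adjusted p = 0.0002), a call that held under every alternative tried. Med27 had 13.7, 15.3 and 15.8 CPM in RA shMed12 cells, against 20.3, 19.0 and 17.2 CPM in RA shNMC cells. The groups lay apart, with a log2 change of -0.33 (SE 0.10, edgeR adjusted p = 0.014), and the call ended without RA shNMC replicate 1 (edgeR adjusted p = 0.071). Med24 had 86.9, 99.4 and 105 CPM with shMed12, against 108, 109.7 and 121 CPM with shNMC, a log2 change of -0.22 (SE 0.09, edgeR adjusted p = 0.043). That call did not hold throughout: the edgeR adjusted p was 0.053 with the fit limited to both groups, 0.14 or 0.072 without RA shMed12 replicate 1 or 2, and 0.18 without RA shNMC replicate 3. Med26 missed the threshold with 24.7, 26.5 and 24.3 CPM in RA shMed12 cells and 20.6, 23.3 and 21.4 CPM in RA shNMC cells (log2 change 0.21, SE 0.09, edgeR adjusted p = 0.054). Its groups lay apart, and DESeq2 called Med26 (DESeq2 adjusted p = 0.018). A fit of both groups with the replicate number as a block also called it (edgeR adjusted p = 0.019), though the numbers were not taken to pair these libraries. Med23 and Med15, which were lower with shMed12 in mESC, had log2 changes of 0.11 (95% interval -0.03 to 0.25) and 0.04 (95% interval -0.13 to 0.21) in RA cells.

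Whether the Med12 hairpin acted differently in RA and mESC cells was tested by an interaction term. No member was called by edgeR, where 5.04% of all genes were, while 2 had an unadjusted p under 0.05 and DESeq2 called 1. That gene was Med23, whose shMed12 effect was higher in RA than in mESC cells by 0.32 on the log2 scale (SE 0.09, edgeR adjusted p = 0.051). DESeq2 gave it an adjusted p of 0.0043, and over the edgeR alternatives the adjusted p ran from 0.025 to 0.22. The other, Med15, had an interaction of 0.25 (SE 0.12, edgeR adjusted p = 0.24). For Med14 the interaction was -0.22 (95% interval -0.53 to 0.10), so its response to the hairpin was not shown to differ between the states.

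Markers of other cells moved with the Med12 hairpin. The summed level of 8 trophectoderm markers was 550 to 702 CPM in mESC shMed12 libraries, against 20.1 to 25.2 CPM in mESC shNMC libraries, with 7 and 3 markers of 8 at or above 1 CPM. In RA libraries it was 659 to 854 CPM with shMed12 and 41.4 to 50.7 CPM with shNMC, with 7 and 6 of 8 at or above 1 CPM. None of the 8 was at 0 in any of these groups. Summed over 10 embryonic stem cell markers, the level was 3546 to 3845 CPM in mESC shMed12 and 6177 to 6236 CPM in mESC shNMC libraries. The summed level of 8 extraembryonic endoderm markers was lower, at 63.5 to 69.5 CPM in mESC shMed12 and 249 to 297 CPM in mESC shNMC libraries, and at 87.3 to 88.8 CPM in RA shMed12 and 154 to 167 CPM in RA shNMC libraries. Of these 8, 3 were called lower in mESC and 4 in RA, and none was at 0. For 10 fibroblast markers the sums were 44.7 to 47.1 CPM and 36.9 to 39.1 CPM in mESC shMed12 and shNMC libraries, with Lum at 0 in the shNMC ones, and 91.2 to 103 CPM and 90.9 to 99.9 CPM in RA shMed12 and shNMC libraries, with Lum and Postn at 0 in the shNMC ones. For 7 neural markers they were 123 to 128 CPM and 68.1 to 74.4 CPM in mESC, and 122 to 127 CPM and 76.3 to 86.9 CPM in RA, with shMed12 and with shNMC. In mESC, 5 of the 9 fibroblast markers tested were called higher with shMed12 and 2 lower, where 40.5% of all genes were called. The same numbers held in RA, where 41.9% of all genes were, so near-equal sums hide opposed changes. Of the 6 neural markers tested, 1 was called higher and 2 lower in mESC, and 1 higher and 3 lower in RA. The part of these shifts in the changes of Med14 and the tail genes was not tested, and in bulk libraries fewer cells of a type and less RNA per cell cannot be told apart.

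With the hairpin against Cdk8, the members stayed close to the control in mESC. None of the 10 was called by edgeR, where 3.66% of all genes were, none had an unadjusted p under 0.05 and DESeq2 called none. Log2 changes ran from -0.13 (Med26) to 0.33 (Med29), and that of Med14 was -0.02 (95% interval -0.24 to 0.20). In RA cells, Med14 was higher with shCdk8 in each of 3 libraries than with shNMC in any. It was the 1 member of 10 called, where 7.73% of all genes were, at 1.30-fold (log2 change 0.38, SE 0.11, n = 3 each, edgeR adjusted p = 0.034). In the same comparison 8 of 10 embryonic stem cell markers were lower, with sums of 1661 to 2107 CPM in RA shCdk8 and 2414 to 2915 CPM in RA shNMC libraries; the part of this in the Med14 change was not tested. Leaving out any 1 of the 6 libraries ended the call, with edgeR adjusted p from 0.057 to 0.16. Replicate numbers appeared to pair the RA shCdk8 and RA shNMC libraries. With the replicate number as a block, 6 members were called, where 50.0% of all genes were: Med14 (0.37), Med23 (0.14) and Med16 (0.16) higher, and Med27 (-0.25), Med15 (-0.18) and Med26 (-0.16) lower on the log2 scale. That fit was limited to the 6 libraries compared. In it Med14 had an edgeR adjusted p of 9.1e-06. The difference of the shCdk8 effect on Med14 between RA and mESC cells was 0.40 on the log2 scale (SE 0.15, unadjusted p = 0.017, edgeR adjusted p = 1). Limited to the 4 groups involved and with the replicate block, the difference was 0.40 (SE 0.07) and passed with an edgeR adjusted p of 0.0097, the 1 alternative that called it; not every pair of these groups met the rule for pairing. Over all libraries no member was called by edgeR in that interaction, where 0.0369% of all genes were; 1 had an unadjusted p under 0.05 and DESeq2 called none.

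Set directly against each other, both kinase module hairpins differed. Among mESC, 3 of 10 members were called between shMed12 and shCdk8, where 35.8% of all genes were. Med14 was higher with shMed12 (log2 difference 0.81, SE 0.11, edgeR adjusted p = 3.9e-06), while Med24 (-0.34, SE 0.09, edgeR adjusted p = 0.003) and Med23 (-0.26, SE 0.07, edgeR adjusted p = 0.0036) were lower. The numbers also paired these libraries, and with the block, in a fit of these 6 libraries, 6 members were called, where 68.4% of all genes were; the added ones were Med16 and Med26, higher with shMed12, and Med27, lower. Among RA cells, 2 of 10 members were called, where 41.4% of all genes were. Med26 was 1.29-fold higher in RA shMed12 cells than in RA shCdk8 cells, at 24.3 to 26.5 CPM and 18.2 to 20.9 CPM (log2 difference 0.36, SE 0.09, edgeR adjusted p = 0.0018). Med15 was higher with shMed12 by 0.21 (SE 0.08, edgeR adjusted p = 0.041), with overlapping groups of 62.9 to 69.9 CPM and 54.6 to 64.3 CPM. That call ended without the filter on low counts (edgeR adjusted p = 0.078), without RA shMed12 replicate 1, 2 or 3 (0.054, 0.12 or 0.13) and without RA shCdk8 replicate 1 or 2 (0.16 or 0.15). For Med14 the RA difference was 0.20 (95% interval -0.03 to 0.42), and its ranges overlapped.

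Retinoic acid without LIF raised Med14 and lowered Med23, Med26, Med1 and Med25 in shNMC cells. Here 5 of 10 members were called, where 51.4% of all genes were, again a share near the background; the members' median log2 change was -0.09, against 0.02 over all genes. Med14 was 1.33-fold higher in RA than in mESC shNMC cells (log2 change 0.41, SE 0.11, edgeR adjusted p = 0.0032). Med23 had 79.3, 77.2 and 86.4 CPM in RA shNMC cells, against 102, 106 and 99.1 CPM in mESC shNMC cells. The groups lay far apart relative to their spread (log2 change -0.34, SE 0.07, edgeR adjusted p = 0.00024). For Med26 the RA libraries held 20.6, 23.3 and 21.4 CPM and the mESC libraries 26.2, 28.2 and 26.0 CPM, again without overlap (log2 change -0.30, SE 0.09, edgeR adjusted p = 0.0059).

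Med1, which retinoid, thyroid hormone and vitamin D receptors bind, had 159, 161 and 170.5 CPM in RA shNMC cells, against 189, 212 and 185 CPM in mESC shNMC cells. The RA values all lay lower (log2 change -0.26, SE 0.08, edgeR adjusted p = 0.0074), and the call ended without mESC shNMC replicate 2 (edgeR adjusted p = 0.057). Med25 had 66.8, 74.9 and 84.4 CPM in RA shNMC cells and 93.3, 90.5 and 105 CPM in mESC shNMC cells. Its spread within a group was wider (log2 change -0.35, SE 0.12, edgeR adjusted p = 0.02), and the call ended without RA shNMC replicate 1 or 2 (edgeR adjusted p = 0.11 or 0.069) or mESC shNMC replicate 3 (0.089). Med15 and Med16 lay apart between the states but were not called, with log2 changes of -0.17 (edgeR adjusted p = 0.086) and 0.29 (edgeR adjusted p = 0.11). Med24, Med27 and Med29 changed by 0.05, 0.03 and -0.00 on the log2 scale, with 95% intervals of -0.13 to 0.22, -0.19 to 0.24 and -0.35 to 0.34. The sum of 10 embryonic stem cell markers was 2414 to 2915 CPM in RA shNMC and 6177 to 6236 CPM in mESC shNMC libraries. The 8 trophectoderm markers summed to 41.4 to 50.7 CPM in RA and 20.1 to 25.2 CPM in mESC shNMC libraries, and the 8 extraembryonic endoderm markers to 154 to 167 CPM and 249 to 297 CPM. The part of these shifts in the changes was not tested.

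In shCdk8 cells, retinoic acid without LIF again went with higher Med14 and lower Med26 and Med23. Of 10 members, 5 were called, where 51.7% of all genes were. Med14 was 1.75-fold higher in RA than in mESC shCdk8 cells (log2 change 0.81, SE 0.11, edgeR adjusted p = 2.7e-06). Med26 had 18.2, 19.6 and 20.9 CPM in RA shCdk8 cells, against 25.3, 23.0 and 25.1 CPM in mESC shCdk8 cells; RA shCdk8 had the lowest of the 8 group means of Med26 (log2 change -0.32, SE 0.09, edgeR adjusted p = 0.0032). Med23 had 88.1, 88.8 and 91.1 CPM in RA shCdk8 cells and 107, 109 and 103 CPM in mESC shCdk8 cells (log2 change -0.25, SE 0.07, edgeR adjusted p = 0.0034). For Med26 and Med23 the RA and mESC groups did not overlap. Med16 was higher in RA, at 23.9, 27.4 and 33.3 CPM against 18.9, 19.8 and 23.3 CPM in mESC (log2 change 0.45, SE 0.15, edgeR adjusted p = 0.019). Without RA shCdk8 replicate 3, or mESC shCdk8 replicate 1 or 2, its edgeR adjusted p was 0.13, 0.079 or 0.063. Med15 was lower in RA (log2 change -0.22, SE 0.08, edgeR adjusted p = 0.027), a call that ended without the filter on low counts (edgeR adjusted p = 0.055), without RA shCdk8 replicate 1 or 2 (0.11 for either) and without mESC shCdk8 replicate 1 or 3 (0.066 or 0.10). The replicate numbers paired these groups too. With the block, in a fit of these 6 libraries, 8 members were called, where 77.8% of all genes were, adding lower Med1, Med25 and Med29.

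In shMed12 cells, 1 of 10 members was called between RA and mESC, where 37.1% of all genes were. Med1 had 161, 142 and 156 CPM in RA shMed12 cells, against 176, 187 and 169 CPM in mESC shMed12 cells (log2 change -0.21, SE 0.08, edgeR adjusted p = 0.035). The groups lay apart, yet the call ended without RA shMed12 replicate 2 or 3 (edgeR adjusted p = 0.16 or 0.054) or mESC shMed12 replicate 1 or 2 (0.066 or 0.092). Med14 overlapped between the states (log2 change 0.19, SE 0.11, edgeR adjusted p = 0.16). The log2 changes of Med23 and Med26, which fell in shNMC and in shCdk8 cells, were -0.02 (95% interval -0.16 to 0.12) and -0.11 (95% interval -0.28 to 0.07). For Med26 the difference in retinoic acid response between shMed12 and shNMC cells was 0.19 (SE 0.12, edgeR adjusted p = 0.43), and for Med14 and Med23 it is the interaction given above. In the edgeR fit over all libraries, no interaction term of a member passed the threshold, with shMed12 or with shCdk8. The terms that passed under an alternative were that of Med23 with shMed12 (median-ratio size factors, DESeq2, the replicate block, or without RA shNMC replicate 3) and that of Med14 with shCdk8 (the replicate block). The responses of shMed12 and shCdk8 cells were not set against each other. The hairpin comparisons within a state share their shNMC libraries, and the retinoic acid comparisons share libraries with them.

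**Figure D3:**
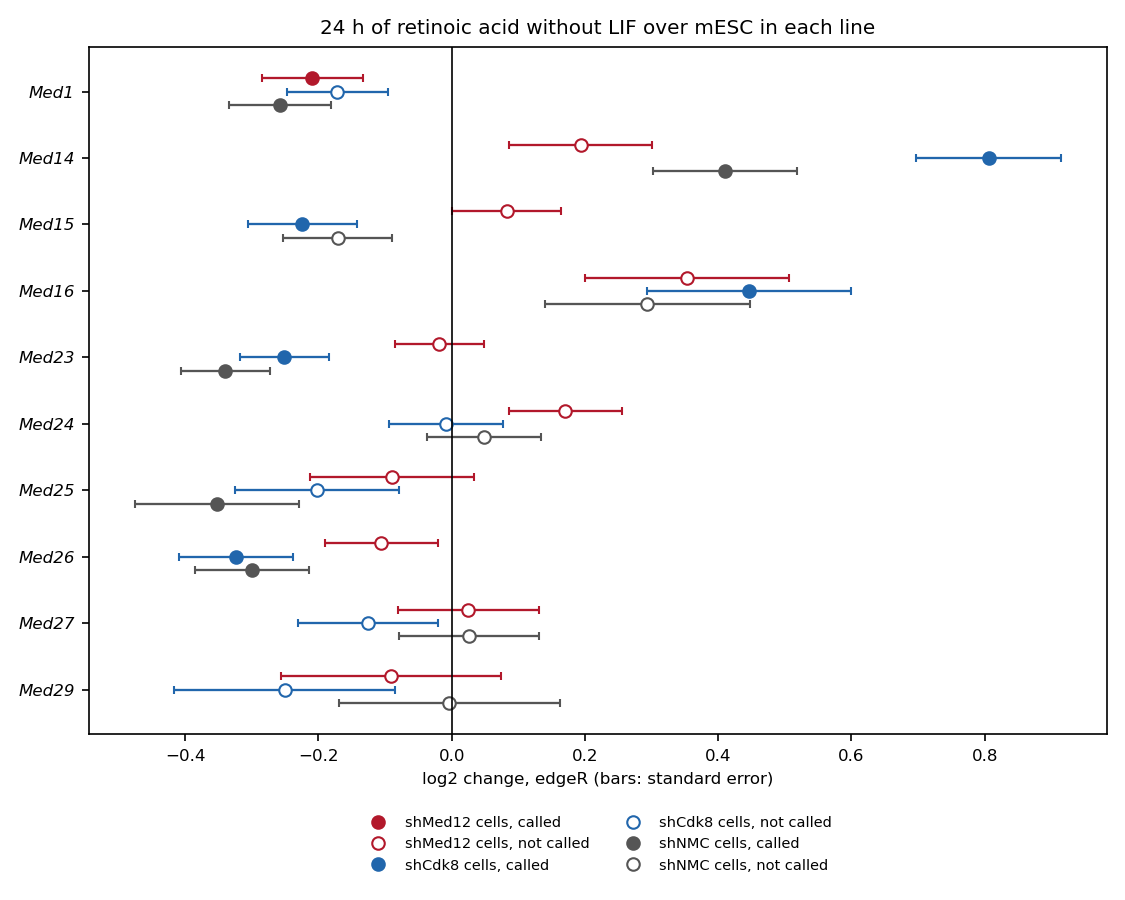
Log2 change of each member (horizontal axis, bars for standard error) in RA over mESC cells carrying shMed12, shCdk8 or shNMC, with filled points for calls. Med14 lies to the right of 0 in all lines, at 0.19, 0.81 and 0.41, and is called with shCdk8 and with shNMC; Med1 lies to the left in all 3, at -0.21, -0.17 and -0.26.

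With the hairpin against Ring1b, a core subunit of Polycomb repressive complex 1, Med24 was the 1 member of 10 called, where 15.1% of all genes were. It had 93.7, 95.0 and 97.6 CPM in mESC shRing1b cells, against 125, 113 and 113 CPM in untransfected cells. The groups lay apart (log2 change -0.29, SE 0.09, edgeR adjusted p = 0.024), and without replicate 3 of shRing1b, whose Rnf2 level goes against its label, the log2 change was -0.31 (edgeR adjusted p = 0.021). The call ended with the fit limited to both groups (edgeR adjusted p = 0.40), against the shNMC cells of the other library set (0.11), without shRing1b replicate 1 or 2 (0.055 or 0.05, the second just above the threshold before rounding) and without untransfected replicate 1 (0.079). Markers of other cells moved with shRing1b. Of the trophectoderm markers, 7 of 8 were called higher, with sums of 45.2 to 99.3 CPM in shRing1b and 20.5 to 30.7 CPM in untransfected libraries. The sum of 8 extraembryonic endoderm markers ran from 151 to 2063 CPM in shRing1b and from 317 to 443 CPM in untransfected libraries, and 1 of the 8 was called higher. The shRing1b sums thus reached both below and above the untransfected ones, so no shift of this sum shared by the group was shown. The part of these markers in the Med24 change was not tested. Med14 had a log2 change of 0.06 (95% interval -0.17 to 0.28). The control hairpin itself was set against untransfected cells across both library sets. None of the 10 members was called by edgeR, where 0.00614% of all genes were, none had an unadjusted p under 0.05, and DESeq2 called none. The log2 differences, shNMC minus untransfected, ran from -0.23 (Med29) to 0.13 (Med27).

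The other Mediator genes were read from lists of the head, middle and kinase modules. With shMed12 in mESC, 1 of 10 head genes was higher (Med11, log2 change 0.59, edgeR adjusted p = 0.0028) and 1 lower (Med18, -0.39, edgeR adjusted p = 0.024). Of 6 middle genes, Med9 was lower (-0.21, edgeR adjusted p = 0.044). In the kinase module, besides Med12 itself (-1.68), its paralogue Med12l was higher (2.22) and Cdk19, the paralogue of Cdk8, lower (-0.51). With shMed12 in RA cells, 3 of 10 head genes were higher (Med22, 0.63; Med20, 0.31; Med11, 0.49) and 1 lower (Med30, -0.56). No middle gene was called there by edgeR or DESeq2, and 1 had an unadjusted p under 0.05. Of the 7 kinase module genes in RA cells, Med12l was higher (1.0), and Med12 (-1.30), Cdk19 (-0.51) and Med13 (-0.31) were among the 4 lower ones. Over all genes tested, 40.5% were called with shMed12 in mESC and 41.9% in RA. The head and middle counts lay at or below these shares, so they say nothing particular about those modules.

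In shNMC cells, 6 of 10 head genes were lower in RA than in mESC and none higher, where 51.4% of all genes were called in either direction. Med18 changed by -0.98, Med22 by -0.61, Med20 by -0.51 and Med19 by -0.40 on the log2 scale, and the median of the list was -0.32, against 0.02 over all genes. In shCdk8 cells 7 of 10 head genes were lower and none higher, where 51.7% of all genes were called. In shMed12 cells 3 of 10 were lower and none higher, where 37.1% of all genes were called. Of the 6 middle genes, 1 was lower in shNMC, 2 in shCdk8 and 1 in shMed12 cells. Med14, which ties these modules together, was the 1 gene called higher in RA than in mESC shNMC cells among the members, the head list and the middle list together. With shCdk8 against shNMC in mESC, no head or middle gene was called by edgeR or DESeq2, and 2 and 1 of them had an unadjusted p under 0.05. Over all genes tested, edgeR called 3.66% there.

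**Figure D4:**
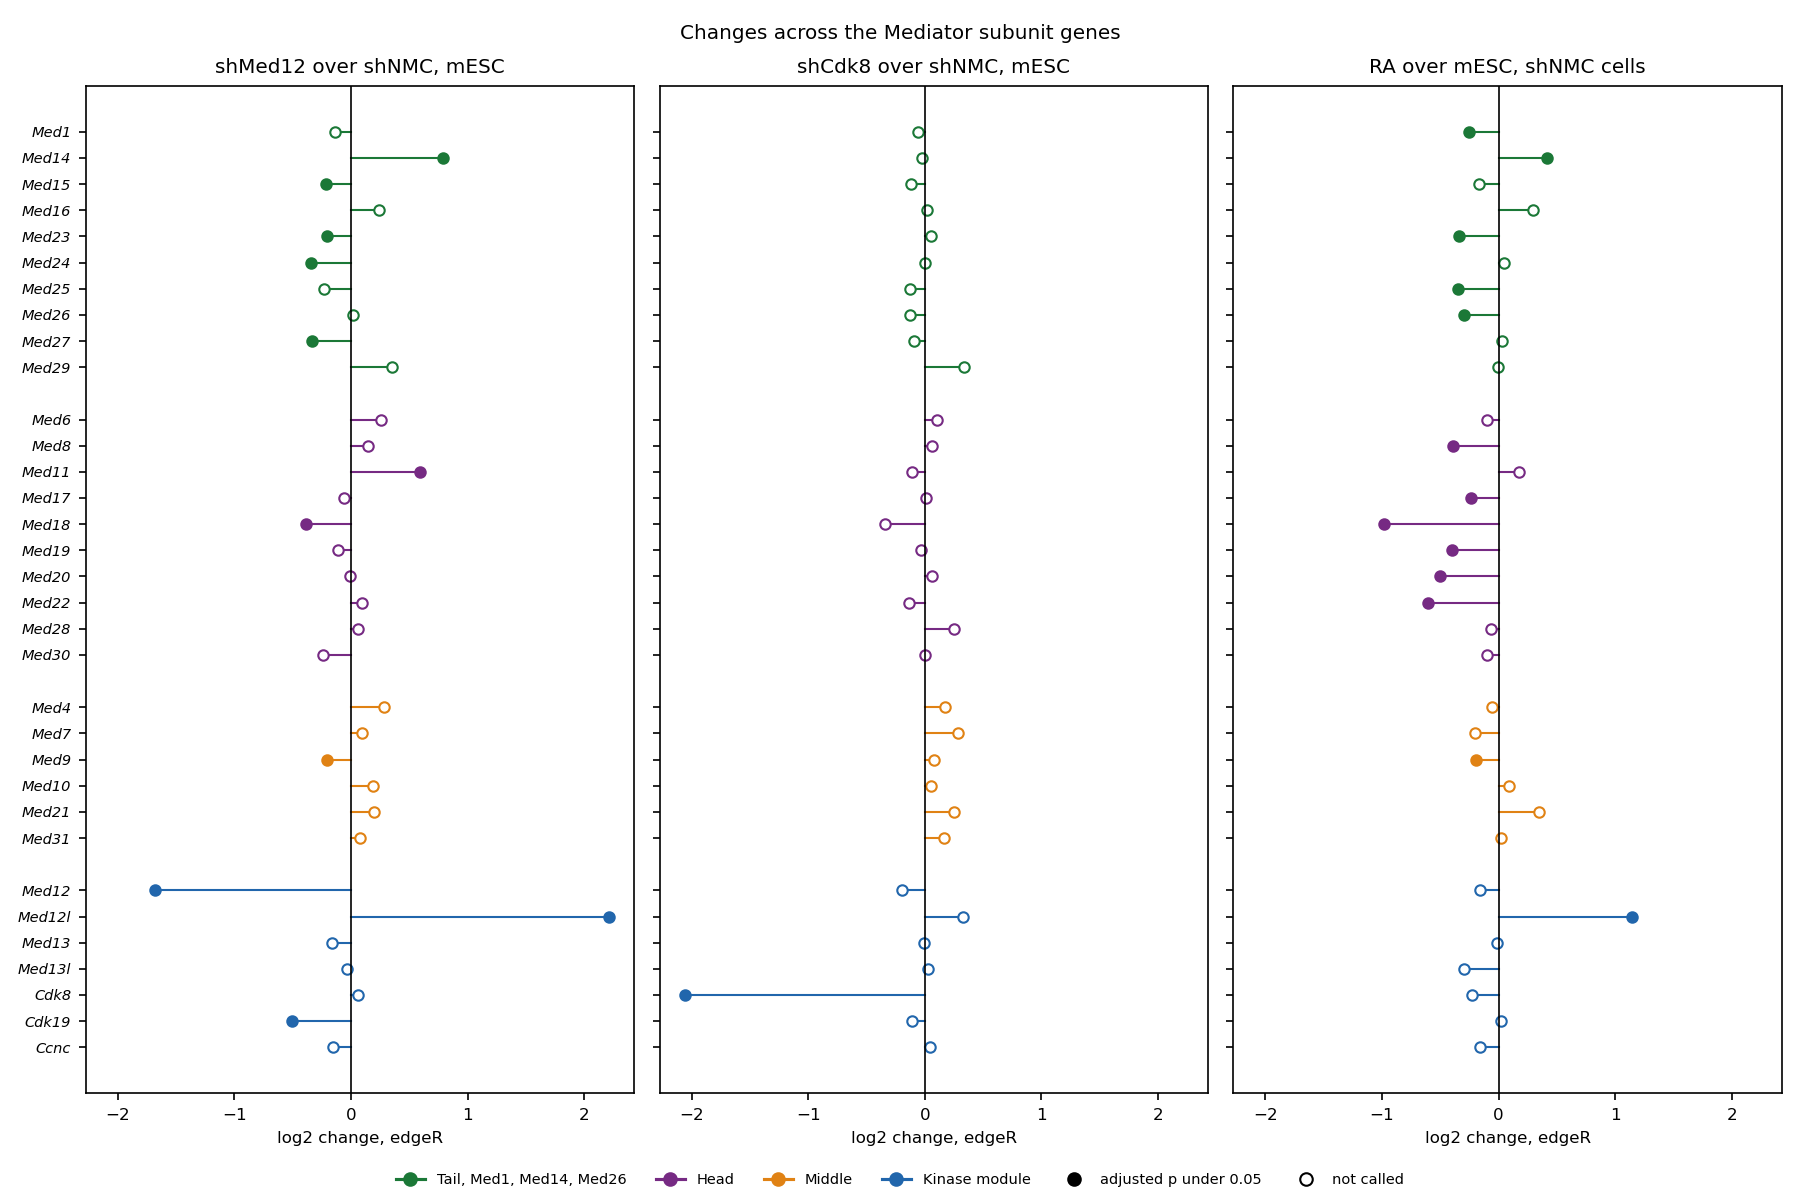
Log2 change (horizontal axis, the same in all panels) of the 10 members and of the head, middle and kinase module genes for shMed12 over shNMC in mESC, shCdk8 over shNMC in mESC, and RA over mESC in shNMC cells, with filled points for calls. Med14 (0.79 and 0.41) stands to the right of the other members in the first and the last panel, Med18 (-0.98) leads the lowered head genes, and Med12l (2.22 and 1.14) moves furthest upwards.

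Among the partners of the members, 14 activators known to bind Med1 or tail subunits were listed. In shNMC cells 5 of 14 were higher in RA than in mESC and 2 lower. Rarb, a retinoic acid receptor gene and a classical target of retinoic acid, changed by 4.56, Vdr, the vitamin D receptor, by 1.66, Smad3 by 0.56 and Rarg by -0.58 on the log2 scale. With shMed12 in mESC, 2 of 14 were higher, among them Smad3 (0.90), and 3 lower (Rarb, -2.09; Rara, -1.04; Rarg, -0.75). With shMed12 in RA cells, 4 of 14 were higher, among them Smad3 (1.15), and 5 lower, among them Rarg (-0.59), Vdr (-1.02) and Rara (-0.69). Over all genes tested, 51.4%, 40.5% and 41.9% were called in these comparisons, near the listed activators' shares in the first and in the second.

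Med26 is known to bind elongation factor complexes, of which 13 genes were listed. Of these, 8 were lower and 1 higher in RA than in mESC shNMC cells. Aff1, a scaffold of the super elongation complex, changed by -1.38, Ccnt2 by -0.66, Ell2 by -0.44 and Mllt3 by 0.80 on the log2 scale. With shMed12 in mESC, 3 of 13 were lower (Aff1, -0.96; Ell, -0.41; Ccnt2, -0.37) and Cdk9, the kinase of P-TEFb, was higher (0.31). Of all genes tested, 51.4% and 40.5% were called in these comparisons. Of 12 RNA polymerase II subunit genes, 5 were lower and none higher in RA than in mESC shNMC cells. With shMed12 in mESC, 4 of 12 were lower and none higher, with the lowest p for Polr2a, the largest subunit (log2 change -0.47). Both counts are smaller shares than those of all genes, 51.4% and 40.5%.

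The other 2 lists moved in both directions or little. Of 9 other nuclear receptor coactivators, 1 was higher and 2 lower with shMed12 in mESC (Ncoa6, 0.20; Kat2b, -0.68; Ncoa1, -0.33). In shNMC cells 1 of 9 was higher and 4 lower in RA than in mESC, among them Kat2a (-0.56) and Carm1 (-0.60). Of 7 genes of cohesin, which works with Mediator at enhancers, and its loader, Stag2 was higher (0.46) and Nipbl lower (-0.29) with shMed12 in mESC. In RA against mESC shNMC cells, Smc3 (-0.25) and Nipbl (-0.39) were lower. Of all genes tested, 40.5% were called with shMed12 in mESC and 51.4% in RA against mESC shNMC cells. The counts of both lists lay near or below these shares.

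The genes whose pattern was most like that of Med14 over the 8 group means, among 10228 genes compared, were Phf2 (Pearson r = 0.992), Parp10 (0.988) and Rhd (0.986). For Med26 they were Eif3i (0.992), Slc11a2 (0.985) and Tk1 (0.981). These are the highest of very many coefficients over 8 points that share treatments and library sets. They describe likeness in these groups only.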

How the data were processed

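RNA abundance was measured in 24 libraries of 8 groups. The authors deposited unscaled read counts for each gene symbol, with 1 file per library; the submitters' processing notes name bcl2fastq 1.8.4, STAR 2.3.1z13, SAMtools 1.2, HTSeq 0.6.1p1, DESeq2 1.6.3 and build mm9. Not given in the sources used here are their roles, the annotation and whether counting used strand, so reads of overlapping or antisense genes may be shared. Gene counts per library were 27.4 to 57.3 M; 5 entries that name no gene were left out of library sizes, of which multiply aligned reads made 20.0% to 49.1% of all entries, reads in no feature 8.70% to 17.3% and ambiguous reads 0.111% to 0.197%.

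Counts were filtered with filterByExpr (16280 genes kept), scaled by TMM and fitted over all 24 libraries with edgeR 4.0.16 (R 4.3.3, limma 3.58.1; robust quasi-likelihood F test, 16 residual degrees of freedom). p-values were two-sided and Benjamini-Hochberg adjusted over all genes within each of 13 comparisons; calls are at an adjusted p under 0.05. SE is the log2 change over the root of F. CPM uses TMM-scaled library sizes. Levels per kilobase use merged exons of GENCODE M21, which is not known to be the authors' annotation. Promoters come from the RefSeq table (GRCm38.p6). The fit was tested on simulated data.

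Alternatives were DESeq2 1.42.0, median-ratio size factors, no filter, only the groups compared, a replicate block in a fit of only the groups compared, each library left out, and shNMC as reference for shRing1b. Replicate numbers were taken to pair samples where every same-numbered pair of libraries deviated together (r over 0.1): RA shCdk8 with RA shNMC (0.475, 0.287, 0.537), RA with mESC shCdk8 (0.358, 0.169, 0.371) and mESC shMed12 with mESC shCdk8 (0.195, 0.157, 0.339). The pairing comes from the data; the labels do not state one. No pair of replicates agreed within sampling noise (lowest mean chi-square per gene 7.17).

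All 10 members were to be named; of other lists, at most 4 called genes with the lowest p per comparison; and 3 genes most like each of the 2 members with the widest range. Members and lists were chosen with earlier results of these data known. Cells with shZrf1 and untransfected cells after retinoic acid were not analysed here.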

Additional observations from a re-analysis of the deposited data

How the results depend on the processing

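Of 26 calls of members over the 13 comparisons, 13 held under every alternative run and 13 ended under at least 1; 25 results that were not called became so under at least 1. No called result changed sign, and of 79 results never called, 31 did. Numbers of called members stayed within 1.5 times of those reported in 116 of 156 alternatives. That number includes alternatives where 0 members were called both as reported and in the alternative. Median-ratio size factors and DESeq2 each gave 1 in the shMed12 interaction in place of 0, and fitting without the filter gave 1 for RA shMed12 over RA shCdk8. For shRing1b over untransfected cells 0 were called with only the groups compared and 0 with shNMC as reference. The causes were not tested, and the share of all genes called was not computed for these alternatives.

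The paired fit, which had the replicate block and only the groups compared, called 8 members for shMed12 over shNMC in mESC, 6 in RA, 6 for shCdk8 over shNMC in RA, 4 for RA over mESC with shMed12, 8 with shCdk8, 6 for shMed12 over shCdk8 in mESC, 4 in RA, 1 in each interaction and 0 for shRing1b. For RA over mESC with shNMC the paired fit called Med14 and Med16 higher and Med1, Med23, Med25 and Med26 lower. Outside the 3 comparisons named with the processing, not every same-numbered pair had r over 0.1, so the numbers were not taken to pair the libraries there. Of all genes, the paired fit called 50.0% for shCdk8 over shNMC in RA. It called 77.8% for RA over mESC with shCdk8 and 68.4% for shMed12 over shCdk8 in mESC. For the other comparisons that share was not computed, so their counts say nothing particular about the members.

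Leaving out 1 library gave, for shMed12 over shNMC, 2 to 6 called members in mESC and 2 to 3 in RA; for RA over mESC, 0 to 3 with shMed12, 3 to 4 with shCdk8 and 4 to 5 with shNMC; for shMed12 over shCdk8, 3 to 4 in mESC and 1 to 2 in RA; 0 to 1 in the shMed12 interaction and for shRing1b; and 0 to 0 for shCdk8 over shNMC in both states, the shCdk8 interaction and shNMC over untransfected cells. The share of all genes called was not computed for these fits, so their counts say nothing particular about the members. Med29, with 169 to 440 counts per library, had the widest intervals, and 3 libraries per group limit all of them.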

Other observations

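Among the 6 groups with shNMC, shMed12 or shCdk8, replicate 3 held the highest CPM in 6 of 6 for Med16, in 6 of 6 for Med24 and in 6 of 6 for Med25. For Med14, replicate 2 was highest in 5 of 6 groups. The labels say nothing of what a replicate number shares. Med14 and Med16 were also the members whose log2 group means ran most closely together among pairs with Med14 (Pearson r = 0.897 over 8 groups, given as a description).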
